A study of Mus musculus with 4 samples.

Results

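The genes examined here encode the mitochondrial enzymes that bring pyruvate into the tricarboxylic acid (TCA) cycle and turn the cycle itself. They were chosen by name, and every non-control probe carrying one of the 9 gene names (Pdha1, Pcx, Cs, Idh3a, Idh2, Ogdh, Suclg1, Fh1 and Mdh2) was used. These 9 genes were read by 12 of 39392 probes and were 9 of 30204 gene names on the array. Ogdh had 3 probes, Fh1 had 2 and each of the others had 1.

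Pyruvate reaches the TCA cycle by either of a pair of routes inside the mitochondrion. The pyruvate dehydrogenase complex oxidizes it to acetyl-CoA, and pyruvate carboxylase adds a carbon to make oxaloacetate, which both refills the cycle and feeds gluconeogenesis in liver. Citrate synthase then joins acetyl-CoA and oxaloacetate, and a series of dehydrogenases returns the carbon skeleton to oxaloacetate while passing electrons to the respiratory chain. In a fasted liver pyruvate dehydrogenase is largely held inactive by its kinases, and refeeding reverses this.

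The question was whether expression of these enzymes differs in livers without Drp1, the dynamin-related GTPase (gene Dnm1l) that divides mitochondria, and whether refeeding changes it. RNA from whole liver was hybridized to 4 one-color arrays, 1 per group, so no group has a second sample. All mice were male C57BL/6J kept for 24 weeks on a high-fat diet. The control mice (Cont; "wild type" in the labels) were Drp1 flox/flox littermates, and the knockout mice (Drp1LiKO) carried in addition a Cre transgene driven by the albumin promoter, which is active in hepatocytes, so other liver cells are expected to keep the gene. Of each genotype, 1 array was labelled refed, after a fast of 17 h and refeeding for 4 h. The other array carries no feeding state in its label, shares its raw data with another submission, by its label, and is called fasted here from the methods of the study. The labels do not say whether an array holds 1 animal or a pool.

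All 4 arrays lay on 1 slide and were scanned together. Their signal differed: the 75th percentile of the gene spots was 461 in fasted Cont, 722 in fasted Drp1LiKO, 357 in refed Cont and 526 in refed Drp1LiKO, and between 48.7 and 58.2% of spots were well above background. Levels below are log2 signals with the array's own 75th percentile set to 0. The number of arrays limits the precision, and the error given with a difference is the standard error (SE) of the scanner's error model, close to 0.20 for every member, which leaves out all differences between animals. The 8 marker genes of hepatocytes were well above background on every array, with a summed level (linear signal in multiples of the 75th percentile) of 3084, 2091, 3778 and 2504 in the order above. Dnm1l itself was lower in Drp1LiKO by only 0.21 fasted and 0.12 refed. The position of its probe relative to the deleted part was not determined here, so it does not check the labels.

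The probe that reads across a splice junction is shown because it is the only one of the 12 whose bases are not contiguous in the genome: its 60 bases, from one of the pair of Fh1 probes, lie over 2431 bases of the minus strand of mm9 at chr1:177531659-177534089.
Fh1 junction probe: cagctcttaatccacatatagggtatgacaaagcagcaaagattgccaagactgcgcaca
The promoter windows below, 250 bases before a start site of RefSeq in GRCm38.p6, belong to Pcx, which had the lowest genotype differences of the 9 genes, and to Cs, which was higher in Drp1LiKO in both feeding states. Capitals mark the letters CACGTG (E-box), CCAAT (NF-Y) and GGGCGG (Sp1), read on both strands. The first Pcx window is chr19:4510222-4510471, the second chr19:4594069-4594318 and the Cs window chr10:128337477-128337726, all on the plus strand.
Pcx first start: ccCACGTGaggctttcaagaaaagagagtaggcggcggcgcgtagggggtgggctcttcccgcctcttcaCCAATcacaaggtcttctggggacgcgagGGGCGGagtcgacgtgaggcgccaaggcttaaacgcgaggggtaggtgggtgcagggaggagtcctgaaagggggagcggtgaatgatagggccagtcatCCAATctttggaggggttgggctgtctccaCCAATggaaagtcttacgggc
Pcx second start: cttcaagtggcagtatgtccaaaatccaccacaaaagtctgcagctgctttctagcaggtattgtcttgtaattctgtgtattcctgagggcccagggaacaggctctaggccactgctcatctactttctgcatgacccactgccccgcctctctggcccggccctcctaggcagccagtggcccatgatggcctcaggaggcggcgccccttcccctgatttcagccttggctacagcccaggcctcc
Cs start: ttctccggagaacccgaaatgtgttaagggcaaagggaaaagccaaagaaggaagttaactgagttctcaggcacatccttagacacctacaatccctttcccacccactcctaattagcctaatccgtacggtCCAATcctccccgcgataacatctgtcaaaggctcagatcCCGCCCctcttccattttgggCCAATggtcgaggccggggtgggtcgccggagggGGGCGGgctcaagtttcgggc
Promoters were given for 8 of the 9 genes, all but Idh3a, in 14 windows of which 6 belong to Ogdh and overlap in part. CCAAT stood in 8 of the 14 windows against 33.8% of 32851 mouse promoter windows, GGGCGG in 7 against 32.7%, and CACGTG in 4, of Ogdh and Pcx, against 6.02%. The first Pcx window held all 3 kinds of motif and the second held none. TCAAGGTCA (the ERR motif), found in 0.387% of all windows, stood in none of the 14. These matches describe letters in a window and say nothing of binding.

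None of the 36 differences (2 by genotype and 2 by refeeding for each gene) reached 2-fold. In the fasted pair 0 of 9 genes were called at this threshold, where 13.2% of all genes tested were (2373 of 17946). In the refed pair the count was 0 of 9 against 14.4% (2494 of 17366), for refeeding in Cont 0 of 9 against 10.3% (1679 of 16358) and for refeeding in Drp1LiKO 0 of 9 against 12.8% (2331 of 18237). The 4 differences share arrays in pairs and are not independent of each other. All 9 genes were well above background on all 4 arrays, so none of their differences is a bound.

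**Figure D1:**
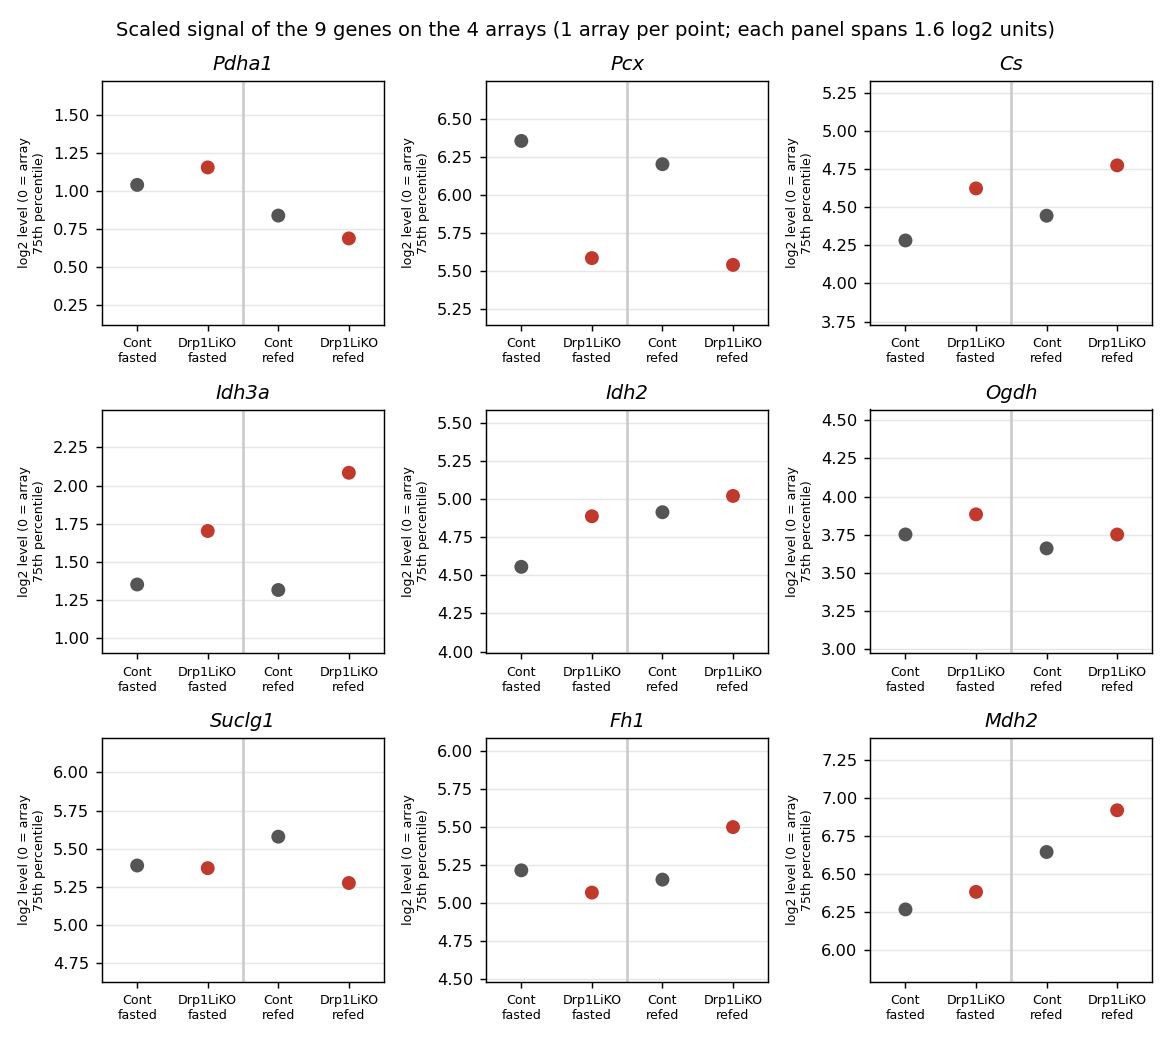
Scaled log2 signal (vertical axis, 0 is the 75th percentile of the array) of each of the 9 genes on the 4 arrays (horizontal axis), 1 point per array, gray for Cont and red for Drp1LiKO. Pcx is lower and Cs and Idh3a are higher in Drp1LiKO than in Cont in both feeding states; every panel spans the same range, but levels of different genes cannot be set against each other.

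Pcx, which encodes pyruvate carboxylase, was the gene that differed most by genotype in fasted livers. Its level was 6.35 in fasted Cont, 5.58 in fasted Drp1LiKO, 6.20 in refed Cont and 5.54 in refed Drp1LiKO. Both Drp1LiKO arrays lay below both Cont arrays, and refed minus fasted was -0.15 in Cont and -0.04 in Drp1LiKO. The refeeding differences depended on the scaling: quantile normalization gave -0.47 and -0.49, as large as the genotype differences at that setting, and a limma refeeding effect of -0.48 with an adjusted p of 0.217. The genotype difference was -0.77 ± 0.20 (SE) in fasted livers, a 1.70-fold lower signal, and -0.66 ± 0.20 in refed livers, 1.58-fold lower. Among the 14387 genes with a signal well above background on each array, these stood at the 7.13 and 11.5 percentiles. Over all scalings, background corrections and probe rules tried, the fasted difference ran from -0.83 to -0.47 and the refed difference from -0.66 to -0.49, so the sign held while the size depended on the scaling.

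Pdha1, the catalytic E1 alpha subunit of pyruvate dehydrogenase and the subunit that the kinases phosphorylate, did not follow Pcx. Its level was 1.04 in fasted Cont, 1.15 in fasted Drp1LiKO, 0.84 in refed Cont and 0.69 in refed Drp1LiKO. The lowest values were those of the refed arrays. The genotype differences were within 1 SE and of opposite sign (0.11 fasted and -0.15 refed), while refed minus fasted was -0.20 ± 0.20 in Cont and -0.47 ± 0.20 in Drp1LiKO. The refeeding difference kept its sign under every setting (-0.29 to -0.20 in Cont and -0.64 to -0.37 in Drp1LiKO). The probes lie at chrX:156560665-156560724 for Pdha1 and chr19:4621610-4621669 for Pcx (mm9).

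Cs, citrate synthase, which makes citrate at the entry of the cycle, was higher in Drp1LiKO in both feeding states. Its level was 4.28 in fasted Cont, 4.62 in fasted Drp1LiKO, 4.44 in refed Cont and 4.77 in refed Drp1LiKO. Both Drp1LiKO arrays lay above both Cont arrays. The differences of 0.34 ± 0.20 and 0.33 ± 0.20 correspond to 1.27-fold and 1.26-fold, and quantile normalization gave 0.60 and 0.48. Csl, a citrate synthase-like paralog, gave 0.31 and 0.25. The probes of Cs and Csl share no run longer than 5 bases. Whether the Csl probe also reads Cs RNA was not tested, so its values are not a separate reading of the difference.

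Idh3a, the catalytic alpha subunit of the NAD-dependent isocitrate dehydrogenase, an allosterically regulated step of the cycle, had the highest genotype difference of the 9 genes. Its level was 1.35 in fasted Cont, 1.70 in fasted Drp1LiKO, 1.31 in refed Cont and 2.08 in refed Drp1LiKO. Both Drp1LiKO arrays were again above both Cont arrays, and the refed one was the highest of the 4. The difference was 0.35 ± 0.20 fasted (1.28-fold) and 0.77 ± 0.20 refed (1.70-fold), at the 85.2 and 94.6 percentiles of all measured genes. The range over settings was 0.29 to 0.51 fasted and 0.77 to 0.85 refed. The other subunits of this enzyme were lower in Drp1LiKO, as most measured genes were at this scaling. Idh3b was at -0.22 fasted and -0.15 refed, and Idh3g at -0.28 and -0.37.

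Idh2, the NADP-dependent mitochondrial isocitrate dehydrogenase, which supplies NADPH, was lowest in fasted Cont. Its level was 4.56 there, 4.89 in fasted Drp1LiKO, 4.91 in refed Cont and 5.02 in refed Drp1LiKO. The other three arrays lay within 0.13 of each other, and the difference of 0.33 ± 0.20 by genotype in fasted livers was 0.11 ± 0.20 in refed livers, a change of -0.23 ± 0.29 that is within its error. With quantile normalization the genotype differences were 0.63 and 0.25, and refed minus fasted was 0.14 in Cont and -0.24 in Drp1LiKO, where it was 0.36 and 0.13 at the 75th percentile scaling.

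Ogdh, the E1 subunit of the 2-oxoglutarate dehydrogenase complex, had differences of at most 0.13 in size by the probe used for it, at the 75th percentile scaling. Its level was 3.75 in fasted Cont, 3.88 in fasted Drp1LiKO, 3.66 in refed Cont and 3.75 in refed Drp1LiKO, all within 1 SE of each other by genotype (0.13 and 0.09) and by refeeding (-0.09 and -0.13). A second probe 72 bases away on the same strand gave 0.13, 0.01, -0.08 and -0.19 for these 4 differences. The third probe, at chr11:6258910-6258969, gave 0.34, 0.50, 0.32 and 0.48. It contains the run AGCACTGACTGCTCTT, which also stands in the promoter windows of 43 other genes, where no other probe of the 9 genes shares a run of this length with more than 2. The rule that picks 1 probe per gene by detection and signal did not pick this one. For the probe used, quantile normalization gave 0.37 and 0.23 by genotype and -0.26 and -0.40 by refeeding.

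Suclg1, the alpha subunit shared by both forms of succinyl-CoA synthetase, differed most between the refed arrays. Its level was 5.39 in fasted Cont, 5.37 in fasted Drp1LiKO, 5.58 in refed Cont and 5.27 in refed Drp1LiKO. The genotypes were level when fasted (-0.02 ± 0.20), and the refed Drp1LiKO array was the lower of its pair (-0.30 ± 0.20). Quantile normalization turned the fasted difference to 0.30 and gave -0.17 refed, with refeeding differences of -0.05 in Cont and -0.51 in Drp1LiKO.

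Fh1, fumarase, was highest on the refed Drp1LiKO array at this scaling. Its level was 5.21 in fasted Cont, 5.07 in fasted Drp1LiKO, 5.15 in refed Cont and 5.50 in refed Drp1LiKO. The genotype difference was -0.15 ± 0.20 fasted and 0.34 ± 0.20 refed, and refeeding gave -0.06 in Cont and 0.43 in Drp1LiKO. The junction probe printed above gave nearly the same (-0.16, 0.37, -0.14 and 0.39). The change of the genotype difference with feeding was 0.49 ± 0.29. Quantile normalization gave genotype differences of 0.15 fasted and 0.48 refed and refeeding differences of -0.31 in Cont and 0.03 in Drp1LiKO, so that the refed Cont array was then the lowest and the Drp1LiKO arrays were level.

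Mdh2, mitochondrial malate dehydrogenase, which regenerates oxaloacetate, was higher on both refed arrays than on both fasted arrays. Its level was 6.27 in fasted Cont, 6.38 in fasted Drp1LiKO, 6.64 in refed Cont and 6.92 in refed Drp1LiKO. Refed minus fasted was 0.38 ± 0.20 in Cont and 0.54 ± 0.20 in Drp1LiKO, and by genotype it was 0.12 and 0.27 (0.46 and 0.40 with quantile normalization). The refeeding differences were close to the median of the brightest 25% of genes (0.26 in Cont and 0.37 in Drp1LiKO), and across settings they ran from 0.08 to 0.38 and from 0.02 to 0.63. The 7 members other than Idh3a and Pdha1 all belong to that 25%.

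**Figure D2:**
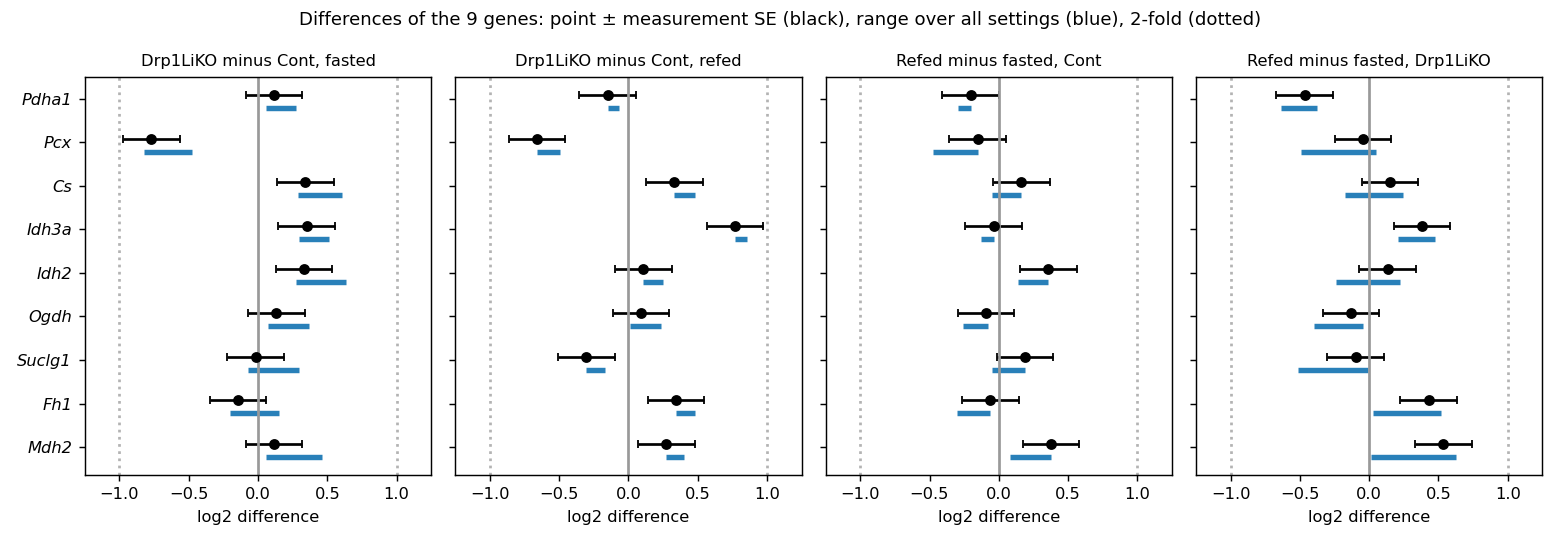
Log2 difference (horizontal axis) of each of the 9 genes (vertical axis) in the 4 comparisons, as a black point with the measurement SE; the blue bar is the range over all processing settings and the dotted lines mark 2-fold. Pcx lies at -0.77 and -0.66 by genotype and Idh3a at 0.35 and 0.77, and no point or bar reaches a dotted line.

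Counted together, 6 of the 9 genes were higher and 3 lower in Drp1LiKO in each feeding state, with a median of 0.12 fasted and 0.11 refed. Over the 14387 measured genes the medians were -0.12 and -0.08, and over the brightest 25% of these -0.27 and -0.14. Of the measured genes, 5559 were higher fasted and 6075 refed. After quantile normalization, which moved the median of all genes to -0.01 in both feeding states, the medians of the 9 genes were 0.37 and 0.25. At 1.5-fold, 1 of 9 genes was past the threshold in fasted livers (Pcx) where 28.2% of all genes were, and 2 of 9 in refed livers (Pcx and Idh3a) where 30.1% were. Neither share is above the background, which includes dimmer genes than the 9. In fasted livers 7 of 9 genes kept their sign under every setting, while Suclg1 and Fh1 turned positive with quantile normalization, which left 8 genes higher and 1 (Pcx) lower. In refed livers 9 of 9 kept their sign.

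By refeeding, 4 of the 9 genes were higher and 5 lower in Cont, with a median of -0.04, and 5 were higher and 4 lower in Drp1LiKO, with a median of 0.13 that turned to -0.24 with quantile normalization. All measured genes had medians of 0.11 and 0.12, and the brightest 25% of them 0.26 and 0.37. Of that 25%, 2850 of 3597 genes were higher on refeeding in Cont and 2822 in Drp1LiKO. No member reached 1.5-fold on refeeding, where 21.7% of all genes, dimmer ones included, did in Cont and 32.5% in Drp1LiKO. In Drp1LiKO 3 genes lay beyond 2 SE (Pdha1, Fh1 and Mdh2), and in Cont none did. Cs and Suclg1 in Cont, and Cs, Idh2 and Pcx in Drp1LiKO, changed sign under at least 1 setting.

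The only test these arrays allow is an additive limma model of genotype and refeeding over the 16663 genes that were well above background on 2 or more arrays. It has 1 residual degree of freedom and takes any interaction as error. No gene passed a Benjamini-Hochberg adjusted p of 0.05 for either effect (0% of genes), although 4738 had an unadjusted p under 0.05 for genotype and 4415 for refeeding. For Pcx the genotype effect was -0.72 ± 0.14 (SE) with a limma adjusted p of 0.108, for Idh3a 0.56 ± 0.18 with an adjusted p of 0.163 and for Cs 0.34 ± 0.14 with an adjusted p of 0.216. The other 6 genes had adjusted p-values of 0.391 to 0.948 for genotype. For refeeding, Mdh2 had the lowest adjusted p of the 9 genes (0.180, effect 0.46 ± 0.14), followed by Pdha1 (0.255, effect -0.33 ± 0.15). When the model was fitted only to the genes measured on all arrays, 8.56% of genes passed for genotype (1232 of 14387) and Pcx passed with a limma adjusted p of 0.0488, the only one of the 9; over the alternatives its adjusted p ran from 0.0488 to 0.307.

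RNA of several other tissue and cell types differed between the groups. All 5 skeletal muscle genes looked at (Ckm, Acta1, Myh1, Mb and Tnnt3) were well above background on the fasted Cont array, 1 (Mb) was on the refed Cont array and none on the Drp1LiKO arrays, and their summed level was 3.03 and 0.243 in Cont against 0.0755 and 0.0782 in Drp1LiKO, fasted and refed. Muscle is rich in TCA cycle enzymes, and the fasted genotype difference and the refeeding difference in Cont both use the fasted Cont array. The refed genotype difference does not use that array, but its Cont array also had the higher muscle sum of the pair (0.243 against 0.0782). How much muscle RNA adds to either genotype difference was not tested. Of the 7 macrophage markers, 5 were higher in Drp1LiKO fasted and 7 refed, with a summed level of 84.7 and 97.0 in Cont against 99.2 and 167 in Drp1LiKO. Of the 8 hepatocyte markers, 6 were lower in Drp1LiKO in each feeding state (4 fasted and 6 refed with quantile normalization). Before quantile normalization most of the brightest 25% of measured genes were also lower, 2934 of 3597 fasted and 2391 refed. The marker count alone therefore does not show a change in hepatocytes. The neutrophil markers went opposite ways by genotype, with a median of -0.87 fasted and 0.83 refed over the 4 measured, and of 0.23 on refeeding in Cont and 1.90 in Drp1LiKO. The stellate markers had a median of 0.65 fasted (4 of 6 higher, summed level 45.5 in Cont against 64.8 in Drp1LiKO) and 0.00 refed (51.2 against 58.6). Of the 5 adipocyte markers Adipoq, Lep, Plin1 and Retn were not well above background on any array, while Car3, which hepatocytes also express, was measured on all and was lower in Drp1LiKO, at -1.77 fasted and -1.57 refed (summed level of the list 132 and 200.7 in Cont against 38.6 and 67.8 in Drp1LiKO). In whole liver, fewer cells of a type and less RNA per cell cannot be told apart, and the part of these cells in the values above was not tested.

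The other subunits of the cycle and of pyruvate dehydrogenase had no gene at 2-fold by genotype on the probe chosen for it. Of the 11 other TCA cycle subunits, 3 were higher and 8 lower in Drp1LiKO in each feeding state, with medians of -0.22 fasted and -0.15 refed that were 0.06 and -0.01 after quantile normalization. Sdhb, the iron-sulfur subunit of succinate dehydrogenase, had the lowest mean of both genotype differences (-0.48 fasted and -0.20 refed), and Dld, the E3 subunit shared by the pyruvate and 2-oxoglutarate dehydrogenase complexes, the highest (0.16 and 0.20, or 0.67 and 0.52 by its second probe). None of the 11 passed limma, where no gene of the array passed in the main setting. Like 8 of these 11, most of the brightest 25% of measured genes were lower in Drp1LiKO before quantile normalization. Of 3597 such genes, 2934 were lower fasted and 2391 refed, with medians of -0.27 and -0.14. Within the pyruvate dehydrogenase complex, Pdhx, the E3-binding protein, was at -0.36 and -0.42 and Pdhb, the E1 beta partner of Pdha1, at 0.09 and 0.21, with further probes that went other ways: the second Pdhx probe gave -1.61 and 0.15, and the 3 Pdhb probes ran from -0.02 to 1.08 fasted and from 0.20 to 0.49 refed. The carriers that admit pyruvate to the mitochondrion were at -0.05 and -0.15 for Mpc1 and at -0.34 and -0.42 for Mpc2.

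**Figure D3:**
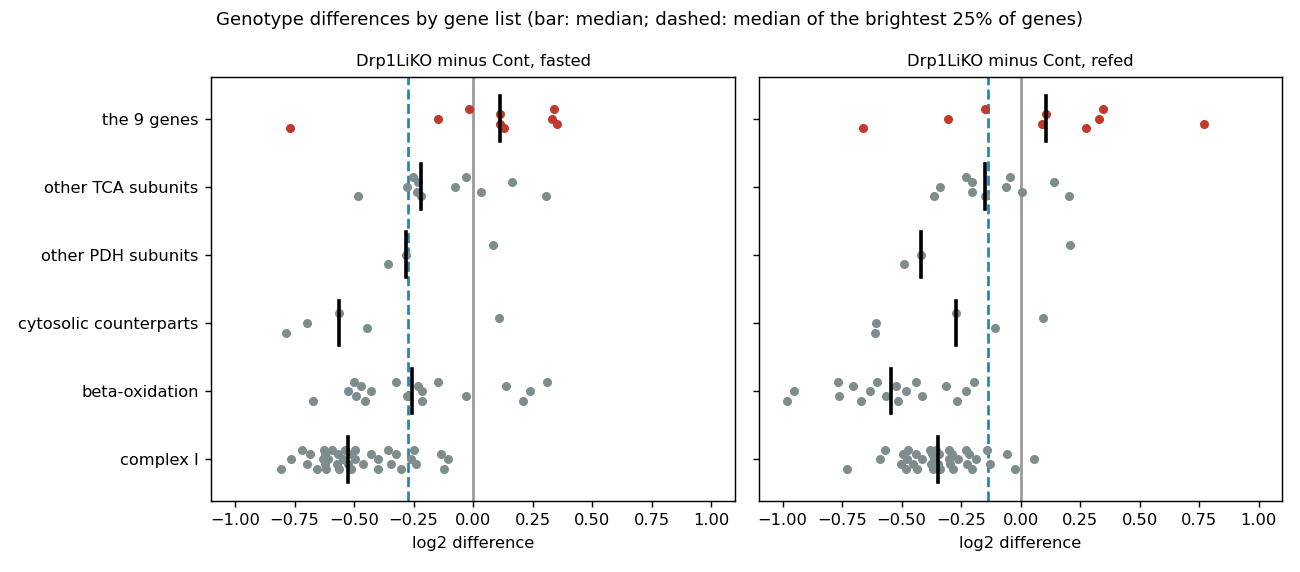
Log2 difference of Drp1LiKO minus Cont (horizontal axis) for each gene of 6 lists (vertical axis), fasted on the left and refed on the right; a point is a gene, the black bar the list median and the dashed line the median of the brightest 25% of all genes. The 9 genes have medians of 0.12 and 0.11, complex I -0.53 and -0.35 and beta-oxidation -0.26 and -0.54; with quantile normalization the fasted median of beta-oxidation is 0.01.

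The lists of neighboring mitochondrial pathways had negative medians by genotype at the 75th percentile scaling. The brightest 25% of measured genes did too, at -0.27 fasted and -0.14 refed. Of these 3597 genes, 2934 were lower in Drp1LiKO fasted and 2391 refed. The 37 genes listed for respiratory complex I, which takes the electrons of the cycle's NADH, were lower for 37 of 37 in fasted and 36 of 37 in refed livers, with medians of -0.53 and -0.35. Quantile normalization brought these medians to -0.22 and -0.20, with 4 of 37 higher in each feeding state. Ndufa3 was the lowest by the mean of both genotype differences (-0.80 fasted and -0.73 refed, but over its 3 probes from -0.80 to 0.06 and from -0.79 to 0.14), and Ndufs4 the highest (-0.12 and 0.05). The 18 genes of mitochondrial beta-oxidation, which supplies acetyl-CoA from fatty acids, were lower for 14 in fasted livers (median -0.26, but 0.01 after quantile normalization) and for 18 in refed livers (median -0.54, and -0.39 after quantile normalization). Eci2, an enoyl-CoA isomerase, was at -0.67 and -0.98, and Slc25a20, the carnitine-acylcarnitine carrier, at 0.31 and -0.27. Cpt1a, the gatekeeper of fatty acid entry, gave 0.24 and -0.57 by genotype and -1.23 by refeeding in Drp1LiKO. Whether the 9 genes differ from these lists was not tested.

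Of the 7 kinases and phosphatase subunits that regulate pyruvate dehydrogenase, those past 2-fold in any difference are described here. Pdk1 (-0.24 fasted and -0.63 refed by genotype) and Pdk2 (-0.51 and -0.50) were not past 2-fold in any. Pdk4, the kinase induced by fasting that inactivates the complex, had a level of -0.80 in fasted Cont, 0.44 in fasted Drp1LiKO, -2.04 in refed Cont and -1.66 in refed Drp1LiKO. Both refed arrays lay below both fasted arrays (differences of -1.24 in Cont and -2.10 in Drp1LiKO), and the fasted Drp1LiKO array was the highest, 1.24 above Cont. The limma effect of refeeding was -1.67 ± 0.27, with an adjusted p of 0.167.

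Pdp2, a phosphatase that reactivates the complex, had a level of 1.71 in fasted Cont, 0.59 in fasted Drp1LiKO, 1.69 in refed Cont and 0.49 in refed Drp1LiKO. Refed minus fasted was -0.02 in Cont and -0.11 in Drp1LiKO, and the genotype difference was -1.12 fasted and -1.20 refed, with a limma genotype effect of -1.16 ± 0.14 and an adjusted p of 0.0998 that became 0.0333 among the genes measured on all arrays. Pdp1, the other catalytic phosphatase, was not well above background on the Cont arrays by the probe chosen for it, which gave at least 2.39-fold higher in Drp1LiKO fasted and at least 2.53-fold higher refed. Its 3 probes gave log2 differences, taken as measured, from 0.996 to 1.97 fasted and from 0.93 to 1.78 refed. Pdk3 was well above background only on the 2 refed arrays, at -2.51 in Cont and -4.38 in Drp1LiKO. This is a genotype difference of -1.87 ± 0.37 (SE), or 3.64-fold lower, between dim signals. By refeeding in Cont it was at least 2.96-fold higher. Pdpr, the regulatory subunit of the phosphatase, had a refeeding difference of -1.01 in Drp1LiKO.

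**Figure D4:**
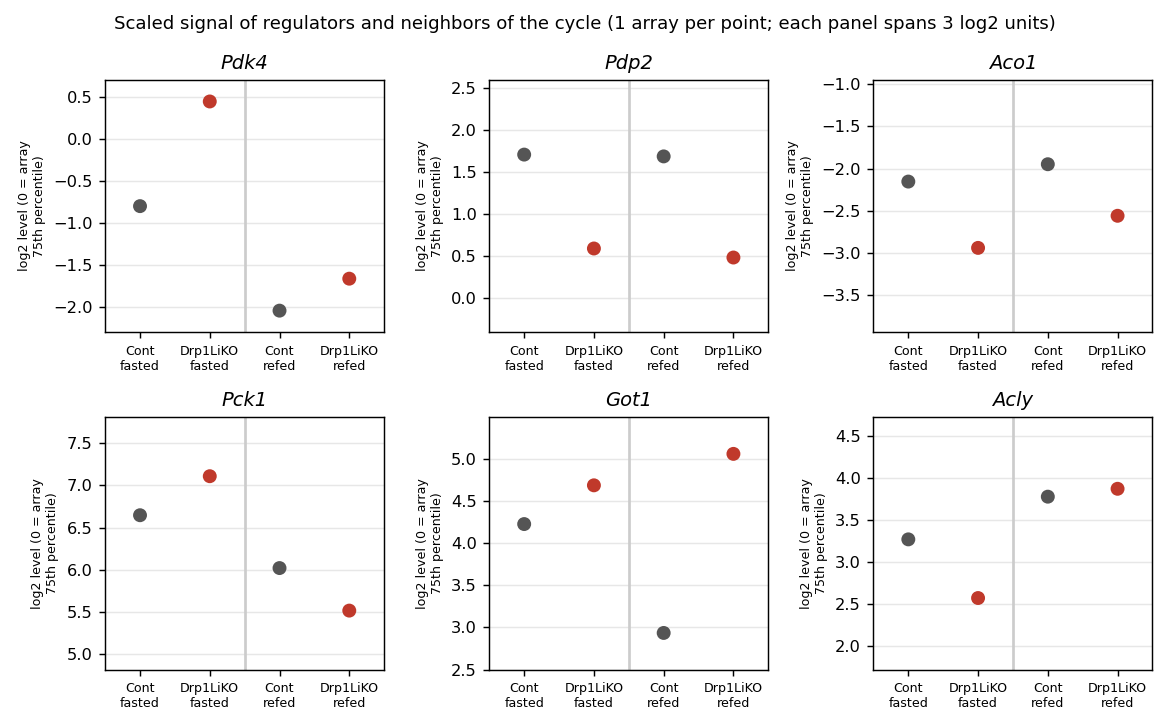
Scaled log2 signal (vertical axis, 0 is the 75th percentile of the array) of 6 regulators and neighbors of the cycle on the 4 arrays (horizontal axis), 1 point per array, gray for Cont and red for Drp1LiKO. Pdp2 separates by genotype (1.71 and 1.69 against 0.59 and 0.49), Pdk4 and Pck1 by feeding state, and Got1 is lowest in refed Cont at 2.94.

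Among the genes by which cycle carbon leaves or enters, Got1, the cytosolic aspartate aminotransferase, differed most. Its level was 4.23 in fasted Cont, 4.69 in fasted Drp1LiKO, 2.94 in refed Cont and 5.06 in refed Drp1LiKO. The refed Cont array was the lowest and the other three were higher by over 2-fold, so that the genotype difference was 0.46 fasted and 2.13 refed. Pck1, which turns oxaloacetate into phosphoenolpyruvate, had levels of 6.65, 7.11, 6.02 and 5.51 in the same order, a refeeding difference of -0.63 in Cont and -1.60 in Drp1LiKO. Acly, which splits exported citrate for lipid synthesis, had levels of 3.27, 2.57, 3.78 and 3.87, and its refeeding difference was 0.51 in Cont and 1.30 in Drp1LiKO. The dicarboxylate carrier Slc25a10 was at -0.58 and -0.77 by genotype. Of the 5 cytosolic counterparts, 4 were lower in Drp1LiKO in each feeding state, from Aco1 (-0.79 and -0.61) to Me1, the cytosolic malic enzyme (0.11 and -0.27). Most measured genes were also lower at this scaling. None of these genes passed limma, and in its main setting no gene of the array did. Pck2, Pdha2 and Ogdhl were not well above background on any array.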

How the data were processed

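Liver RNA of 4 groups was measured on 4 one-color Agilent Whole Mouse Genome 4x44K v2 arrays, 1 per group. The deposited intensity values are processed signals from the scanner files, which the authors made with Feature Extraction (version 10.7.1.1 in the header, 9.5.1.1 in the submitters' processing notes); the background had been subtracted within each array, with no normalization between arrays. The authors' normalized intensity table, matched by quantile-normalizing the linear signals here (99.6% of values within 0.01 on the log2 scale), served as an alternative. Each signal was put on the log2 scale relative to the array's 75th percentile over 43020 gene spots, outlier spots were left out (37 probes lost) and repeated spots averaged. A gene was read from the probe well above background on most arrays, then the brightest. A call needed a 2-fold difference with the brighter signal well above background. For a fold given as a bound, a dim probe was set to the dimmest detected signal of its array unless its own was higher. Positions are those of mm9 in the files.

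limma 3.58.1 in R 4.3.3 fitted the additive model. The code was also run on simulated data with the mean levels of the same genes. These had a common spread for all genes and no refeeding effect or interaction, unlike the arrays, and no result above rests on that run. Tables and plots were made with Python 3.11.15, pandas 2.3.3, numpy 2.4.6, scipy 1.17.1 and matplotlib 3.10.9. The 9 genes and the other lists were chosen with earlier results of these data known. Of the other pathway lists the text names each gene past 2-fold in any difference and, per list, the genes with the highest and lowest mean genotype difference. Pdk1, Pdk2, Idh3b and Idh3g are named beside these. Alternatives were median, quantile and detected-probe scaling, normexp background correction (offset 50), the authors' table, other probe rules, a 1.5-fold threshold and other limma settings. The counts of members called under scalings, background corrections and probe rules were added after seeing the data.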

Additional observations from a re-analysis of the deposited data

Results flagged for a closer look

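For 4 of the 9 genes a difference took opposite signs in both arms of the design. With 1 array per group the change from one arm to the other was not tested, and its SE from the scanner error model is 0.29 for each. Fh1 had a genotype difference of -0.15 fasted and 0.34 refed, and, from the same 4 values, a refeeding difference of -0.06 in Cont and 0.43 in Drp1LiKO, a change of 0.49. For Idh3a refeeding gave -0.04 in Cont and 0.38 in Drp1LiKO, a change of 0.42. For Suclg1 it gave 0.19 and -0.10, a change of -0.29. Pdha1 had genotype differences of 0.11 fasted and -0.15 refed, a change of -0.26. In each case at least 1 of the opposed differences was smaller than its own SE of 0.20. With quantile normalization the opposed signs remained for Idh3a, for Pdha1 and for the refeeding difference of Fh1, but not for Suclg1 (-0.05 in Cont and -0.51 in Drp1LiKO) or the genotype difference of Fh1 (0.15 fasted and 0.48 refed).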

How the results depend on the processing

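No paired analysis was possible because each group holds 1 array. For the same reason no array could be left out of a group. No member was called at 2-fold under any scaling, background correction or probe rule, and at 1.5-fold 1 was called in the fasted and 2 in the refed genotype difference. The median of the members moved with scaling to the whole distribution. In the fasted genotype difference it was 0.37 with quantile normalization and 0.36 with the authors' values, against 0.12. In the refeeding difference of Drp1LiKO it was -0.24 with both, against 0.13. Among single members' values, 283 of the alternatives stayed within the measurement error or on the same side of the threshold, 40 moved beyond it and 1 passed the threshold (Pcx in limma, genes measured on all arrays). Part of the 283 could not move. The rule of the brightest probe returned the main value for every member, and no probe rule can change a gene with 1 probe. Quantile normalization and the authors' values nearly coincide but count as separate settings. Over all genes, the count past 2-fold in the fasted genotype difference went from 2373 to 921 with normexp, 871 with genes measured on all arrays and 5054 at 1.5-fold. In refed livers it went from 2494 to 1067, 1025 and 5229, for refeeding in Cont from 1679 to 721, 573 and 3556, and for refeeding in Drp1LiKO from 2331 to 885, 848 and 5919. limma called 0 genes for genotype and 0 for refeeding (4738 and 4415 at an unadjusted p under 0.05), but for genotype 1232 among genes measured on all arrays, 487 with an intensity trend and 1 without feeding state in the model, and for refeeding 16 among genes measured on all arrays. The setting with genes measured on all arrays tested fewer genes and left out dimmer ones. The cause of the changes in these counts was not tested. Signal over background limits only Pdp1 and Pdk3 among the pathway genes given with values.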
